A study of Mus musculus with 12 samples.

Results

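The genes described here are 9 factors and targets of the Wnt signalling pathway, chosen by symbol: the transcription factors Lef1, Tcf7, Tcf7l1 and Tcf7l2, the feedback targets Axin2 and Znrf3, the transducers Ctnnb1 (beta-catenin) and Apc, and the receptor Fzd7. All 9 had a row in each of 5 tables of the authors' own comparisons, which together name 16399 gene symbols. RNA came from pieces of MC38 tumour, a mouse colon carcinoma line (strain label C57BL/6 albino), cultured in collagen on a microfluidic chip and treated for 6 days. The 12 samples formed 4 groups of 3, which share the line, the strain, the culture and the 6 days. The IgG group had the control antibody clone 2A3 at 10 µg/mL, and the aPD-1 group had clone RMP1-14, against the inhibitory receptor PD-1 of T cells, at 10 µg/mL. The aPD-1+CD8 group had RMP1-14 and the CD8 antibody clone 53-6.7, each at 10 µg/mL, and the IFNg group had interferon-gamma at 100 ng/mL, with no antibody named. Whether the CD8 antibody removed CD8 T cells is not in the labels. MC38 is 1 line, and the labels do not say whether samples within a group are from different tumours or cultures, so the p-values cover sample-to-sample spread that may be no more than technical.

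Wnt proteins bind Frizzled receptors and Lrp5 or Lrp6 at the cell surface. Without them, a destruction complex of Apc, Axin proteins and kinases marks beta-catenin for degradation. With them, beta-catenin accumulates, enters the nucleus and binds the TCF/LEF factors, which otherwise repress their targets with Groucho (TLE) corepressors. Lef1 is both a nuclear partner of beta-catenin and a known target of the pathway, and Tcf7l1 acts mostly as a repressor. Axin2 and Znrf3 are targets that feed back: Axin2 joins the destruction complex, and Znrf3 is a ubiquitin ligase that removes Frizzled receptors from the surface. In the colon the pathway keeps crypt stem cells dividing, and loss of APC is a common early step of colon cancer. Lef1 and Tcf7 are also well known in T cells.

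Start site windows of 7 of the 9 genes were used, without Apc and Znrf3. Promoters are shown for the 3 of these 7 with a TCF/LEF motif in any window. The most upstream start of Lef1, the gene with the largest change of the 9, is shown as well. The first motif searched was CTTTGAA. Another was CTTTGAT, a further one was CTTTGTA, and the last of the 4 was CTTTGTT. Both strands were searched, no window shown held more than 1 match, and capitals mark a match. RefSeq windows run from 250 bases before to 50 after a start, on GRCm38.p6, which is a later build than the mm9 named by the submitters' processing notes. All 4 windows shown lie on the + strand: Lef1 at chr3:131110047-131110346 (most upstream start) and chr3:131156044-131156343 (a start further downstream), Tcf7l2 at chr19:55895071-55895370 (a start further downstream) and Fzd7 at chr1:59481897-59482196.
Lef1, most upstream start: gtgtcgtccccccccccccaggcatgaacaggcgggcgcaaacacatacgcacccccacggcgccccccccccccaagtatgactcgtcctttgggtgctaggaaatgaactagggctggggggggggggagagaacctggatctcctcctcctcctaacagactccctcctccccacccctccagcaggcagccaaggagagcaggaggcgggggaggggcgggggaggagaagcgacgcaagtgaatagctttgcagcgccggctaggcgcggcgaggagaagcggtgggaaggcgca
Lef1, downstream start: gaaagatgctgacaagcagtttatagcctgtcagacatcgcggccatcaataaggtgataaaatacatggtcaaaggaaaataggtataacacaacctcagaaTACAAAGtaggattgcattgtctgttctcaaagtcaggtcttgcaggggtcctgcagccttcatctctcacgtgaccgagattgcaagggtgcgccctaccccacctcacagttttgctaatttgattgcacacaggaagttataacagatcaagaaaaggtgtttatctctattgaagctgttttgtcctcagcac
Tcf7l2, downstream start: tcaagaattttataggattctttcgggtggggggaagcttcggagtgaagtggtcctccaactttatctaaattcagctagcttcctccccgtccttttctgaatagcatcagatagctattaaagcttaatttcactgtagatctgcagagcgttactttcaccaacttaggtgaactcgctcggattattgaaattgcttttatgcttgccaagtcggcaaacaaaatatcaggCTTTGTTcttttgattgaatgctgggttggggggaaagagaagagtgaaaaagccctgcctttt
Fzd7, most upstream start: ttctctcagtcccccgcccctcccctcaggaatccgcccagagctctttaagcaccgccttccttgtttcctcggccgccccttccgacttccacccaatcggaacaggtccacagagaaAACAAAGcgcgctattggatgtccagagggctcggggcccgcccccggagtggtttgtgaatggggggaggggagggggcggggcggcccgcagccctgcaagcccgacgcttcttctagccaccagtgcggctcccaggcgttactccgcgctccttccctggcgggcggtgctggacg
The downstream start of Lef1 held CTTTGTA on the minus strand, that of Tcf7l2 held CTTTGTT on the plus strand, and Fzd7 held CTTTGTT on the minus strand. Of the 7 genes whose windows were used, 1 (Fzd7) had a match at its most upstream start, against 16.9% of 27025 genes. Apc and Znrf3 were not among the 7, so nothing is said of their windows. The counts are per gene and do not separate start sites or isoforms, so no value here belongs to one start. A match describes letters only, and occupancy by any factor was not measured.

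The listed genes numbered 15306 to 15677 per table, and their mean counts added up to 10292941 to 11590748. Epithelial tumour markers were scarce: of 14 entries 3 were in all 5 tables, 0 reached a mean count of 10, and their summed level lay between 3.83 and 7.74 in every group. T cell markers were near 0 as well, with 5 of 20 entries in all tables and 0 at a mean count of 10. In the authors' deposited table for aPD-1 v IgG the mean count was 0.381 for Cd3e and 0.661 for Cd4. The summed T cell level was 5.41 in IgG, 20.2 in aPD-1, 3.57 in aPD-1+CD8 and 15.0 in IFNg, and Ccr7 alone gave 15.7 of the aPD-1 sum. Fibroblast markers were abundant, and their summed level was 5330 in IgG, 20172 in aPD-1, 5150 in aPD-1+CD8 and 6981 in IFNg. Fbn1 alone gave 2407 of the sum in IgG, 11086 in aPD-1 and 4239 in IFNg. Of 9 fibroblast markers tested, 5 rose in aPD-1 v IgG (Fbn1, Col3a1, Dcn, Pdgfra and Col1a1), beside 8.5% of all genes. In aPD-1+CD8 v aPD-1 5 fell (Dcn, Fbn1, Col3a1, Pdpn and Pdgfra), beside 6.94%. In IFNg v aPD-1 another set of 5 fell (Col3a1, Col1a1, Dcn, Fap and Pdgfra), beside 7.13%. Dcn, Col3a1 and Pdgfra fell in each. In IFNg v IgG 3 fell (Col3a1, Fap and Col1a1), beside 1.38%, and 1 rose (Dcn), beside 2.73%. Myeloid markers summed to 212 in IgG, 196 in aPD-1, 196 in aPD-1+CD8 and 481 in IFNg, where Csf1r alone gave 342. Of 9 myeloid markers tested in IFNg v IgG 0 rose and 1 fell, beside 2.73% higher and 1.38% lower of all genes, and their median log2 change was -0.26. The 1 that fell was Mrc1 (-1.29 ± 0.28, adjusted p = 0.000201, authors' deposited table), at 22.7 in IgG and 1.85 in IFNg. In aPD-1 v IgG 1 of 10 tested rose and 0 fell, beside 8.5% higher and 10% lower of all genes. The 1 that rose was Cd14 (1.08 ± 0.37, adjusted p = 0.0239, authors' deposited table). In IFNg v aPD-1 0 of 10 rose and 1 fell, beside 8.39% higher and 7.13% lower. That was Mrc1 again (-1.90 ± 0.49, adjusted p = 0.00165, authors' deposited table). In aPD-1+CD8 v aPD-1 0 of 10 passed, beside 7.82% higher and 6.94% lower. In these bulk samples, fewer cells of a type and less RNA per cell cannot be told apart.

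Each table gives the mean normalized count over 2 groups, and 5 such means were solved for the level of each group. These levels carry no spread of single samples, since 0 columns of single samples were in the tables, and they are not scaled by gene length, so they compare groups and not genes. Of the 9 genes, 7 were highest in the aPD-1 cultures, and the other 2, Tcf7 and Znrf3, were lowest there. The ratio of the highest to the lowest group level was 2.10 for Lef1, 1.84 for Tcf7l1, 1.78 for Axin2, 1.74 for Tcf7l2, 1.51 for Znrf3, 1.32 for Tcf7, 1.26 for Fzd7, 1.12 for Ctnnb1 and 1.10 for Apc.

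**Figure D1:**
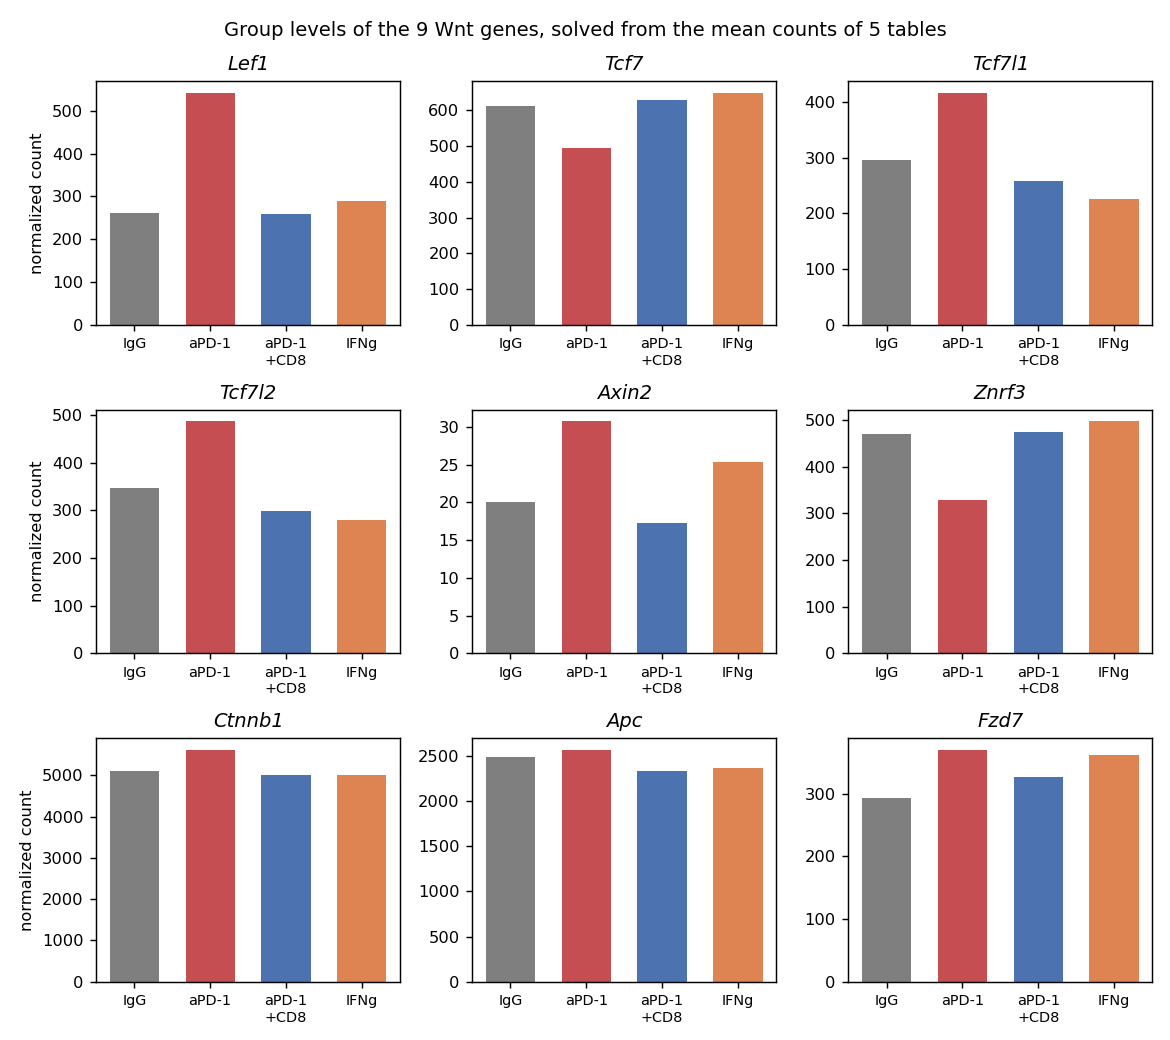
Normalized count of each of the 9 Wnt genes (y axis, from 0, one scale per gene) in the 4 groups (x axis); bars are group levels solved from the mean counts of the 5 tables and have no error bars, since no single sample values were at hand. Lef1 stands at 542.3 in aPD-1 against 258.3 to 288.9 in the other groups, and Znrf3 is lowest in aPD-1, at 329.3.

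Lef1, which binds target genes together with beta-catenin, had the largest changes of the 9 genes. Its level was 260.1 in IgG, 542.3 in aPD-1, 258.3 in aPD-1+CD8 and 288.9 in IFNg. The aPD-1 cultures thus stood alone on the high side, and the levels of the other 3 groups lay close together. Lef1 rose by 0.99 ± 0.17 (SE) in log2 in the authors' deposited table for aPD-1 v IgG (95% interval 0.66 to 1.33, adjusted p = 1.36e-07), and the ratio of its solved levels was 2.08. In the authors' deposited table for aPD-1+CD8 v aPD-1 it fell, with a log2 change of -1.02 ± 0.18 (adjusted p = 1.36e-06). With interferon-gamma in place of aPD-1 it fell too, at -0.88 ± 0.19 (adjusted p = 6.39e-05) in the authors' deposited table. Neither comparison with IgG passed: the authors' deposited tables gave -0.01 ± 0.11 for aPD-1+CD8, with an interval of -0.23 to 0.20, and 0.13 ± 0.17 for IFNg (adjusted p = 0.910). The summed level of the fibroblast markers given above was also highest in aPD-1. Fap went another way, at 37.6 in IgG, 25.4 in aPD-1, 20.1 in aPD-1+CD8 and 4.95 in IFNg. The part of the fibroblast markers in the Lef1 values was not tested. Of 20 T cell markers only 2 had counts enough to be tested in aPD-1 v IgG, and 1 of them, Ccr7, passed, beside 8.5% higher of all genes. Over all 5 comparisons, Ccr7 and Lck were the T cell markers that passed in any. Ccr7 moved with Lef1 and Lck did not. The level of Ccr7 was 0.536 in IgG, 15.7 in aPD-1, 0.381 in aPD-1+CD8 and 0.0336 in IFNg. Lck was at 1.59, 1.69, 1.74 and 10.5 in the same order, and rose in IFNg v aPD-1 (adjusted p = 0.0436, authors' deposited table). Ccr7 rose in aPD-1 v IgG (adjusted p = 7.54e-05) and fell in aPD-1+CD8 v aPD-1 (adjusted p = 0.000357) and IFNg v aPD-1 (adjusted p = 2.63e-05) in the authors' deposited tables. The part of T cells in the Lef1 values was not tested. Against a null fitted to the spread of all Wald scores, Lef1 kept its call in aPD-1 v IgG (adjusted p = 0.0170) and in aPD-1+CD8 v aPD-1 (adjusted p = 0.0204) and lost it in IFNg v aPD-1 (adjusted p = 0.0639).

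Tcf7l1, the mostly repressive member, and Tcf7l2, the main TCF factor of the intestinal epithelium, had like levels over the groups. Tcf7l1 was at 295.1 in IgG, 416.7 in aPD-1, 257.8 in aPD-1+CD8 and 226.4 in IFNg. Tcf7l2 was at 346.2 in IgG, 487.5 in aPD-1, 298.6 in aPD-1+CD8 and 280.9 in IFNg. Both had the same order of groups, aPD-1, IgG, aPD-1+CD8 and IFNg from high to low. Neighbours in that order below aPD-1 were not separated by a test, and aPD-1+CD8 and IFNg were not compared with each other in the tables.

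In aPD-1 v IgG neither factor passed: the authors' deposited table gave Tcf7l1 at 0.46 ± 0.18 (adjusted p = 0.0622) and Tcf7l2 at 0.45 ± 0.20 (adjusted p = 0.108). Both intervals lay above 0 before adjustment, from 0.10 to 0.82 for Tcf7l1 and from 0.06 to 0.85 for Tcf7l2 in the authors' deposited table. Against aPD-1, both fell with the CD8 antibody. The authors' deposited table for aPD-1+CD8 v aPD-1 gave Tcf7l1 at -0.65 ± 0.21 (adjusted p = 0.0179) and Tcf7l2 at -0.65 ± 0.23 (adjusted p = 0.0304). They fell in IFNg v aPD-1 as well, Tcf7l1 at -0.84 ± 0.22 (adjusted p = 0.00177) and Tcf7l2 at -0.74 ± 0.26 (adjusted p = 0.0297) in the authors' deposited table. Against IgG, the authors' deposited table for IFNg gave Tcf7l1 at -0.35 ± 0.17, with an interval of -0.67 to -0.02, which did not pass (adjusted p = 0.360), and Tcf7l2 at -0.26 ± 0.20 (adjusted p = 0.714). All 4 calls of these genes were lost against the fitted null, with adjusted p of 0.475 and 0.203 for Tcf7l1 and 0.551 and 0.4996 for Tcf7l2, in the order just given.

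Tcf7, the TCF factor best known from T cells, did not follow Lef1. Its level was 611.2 in IgG, 493.8 in aPD-1, 628.8 in aPD-1+CD8 and 649.9 in IFNg, so that aPD-1 was the lowest group. No comparison of Tcf7 passed. The authors' deposited table for aPD-1 v IgG gave -0.31 ± 0.15 with an interval of -0.61 to -0.02 (adjusted p = 0.146). Against aPD-1, the authors' deposited tables gave 0.34 ± 0.18 for aPD-1+CD8 (adjusted p = 0.225) and 0.38 ± 0.20 for IFNg (adjusted p = 0.223). T cell markers summed to 3.57 to 20.2 over the groups, with Ccr7 the highest of them in aPD-1 (15.7) and Lck in IFNg (10.5). The part of T cells in the Tcf7 values was not tested.

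Of the feedback targets, Znrf3 was lowest in aPD-1 and passed in 3 comparisons, while Axin2 was highest there and passed in none. Znrf3 was at 470.9 in IgG, 329.3 in aPD-1, 475.3 in aPD-1+CD8 and 498.2 in IFNg, with aPD-1 alone on the low side. Znrf3 fell in the authors' deposited table for aPD-1 v IgG, at -0.52 ± 0.15 (95% interval -0.82 to -0.21, adjusted p = 0.00678). It rose against aPD-1 in the authors' deposited tables of aPD-1+CD8, at 0.51 ± 0.18 (adjusted p = 0.0299), and of IFNg, at 0.58 ± 0.19 (adjusted p = 0.0160). Of 9 housekeeping genes listed as signs of RNA quality, 2 fell in aPD-1 v IgG, the ribosomal protein genes Rplp0 (-0.59 ± 0.13) and Rps2 (-0.64 ± 0.15) in the authors' deposited table, and 0 rose. The shares of all genes were 10% lower and 8.5% higher. The median of the list was -0.05, and its summed level without the ribosomal RNA gene Rn45s was 148794 in IgG and 158376 in aPD-1. In aPD-1+CD8 v aPD-1 Rplp0 (0.61 ± 0.15) and Rps2 (0.67 ± 0.19) rose, as did Rps2 in IFNg v aPD-1 (0.50 ± 0.19), per the authors' deposited tables. The relation of these values to Znrf3 was not tested. All 3 calls of Znrf3 were lost against the fitted null, with adjusted p of 0.386, 0.533 and 0.408. Axin2 had few counts: 20.0 in IgG, 30.8 in aPD-1, 17.2 in aPD-1+CD8 and 25.4 in IFNg. Its groups had the same order as those of Lef1, but no comparison passed. The authors' deposited table for aPD-1 v IgG gave Axin2 0.44 ± 0.34 with an interval of -0.24 to 1.11 (adjusted p = 0.447), which spans both no change and a rise as large as that of Lef1. Against aPD-1, the authors' deposited tables gave Axin2 -0.64 ± 0.36 for aPD-1+CD8 (adjusted p = 0.253) and -0.23 ± 0.41 for IFNg (adjusted p = 0.801).

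Ctnnb1 and Apc, the beta-catenin gene and the scaffold that limits its protein, varied least. Ctnnb1 was at 5097 in IgG, 5620 in aPD-1, 5005 in aPD-1+CD8 and 5011 in IFNg. Apc was at 2485, 2571, 2332 and 2369 in the same order. The groups of both genes lay within 1.12 times of each other, and 0 of their comparisons passed. In the authors' deposited table for aPD-1 v IgG, Ctnnb1 was at 0.12 ± 0.12 (interval -0.11 to 0.35) and Apc at 0.03 ± 0.15 (interval -0.26 to 0.33). Over all 5 comparisons 0 of their p-values were under 0.05 unadjusted (DESeq2). These intervals leave out a doubling, and changes within them were not detectable at this precision. The transcript does not measure beta-catenin protein, whose amount is set largely by degradation.

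Fzd7, a Frizzled receptor linked to stem cells of the gut, was at 293.3 in IgG, 370.2 in aPD-1, 326.0 in aPD-1+CD8 and 362.2 in IFNg. The aPD-1 and IFNg levels were near each other and above those of the other 2 groups. No comparison passed for Fzd7. The authors' deposited tables gave 0.31 ± 0.17 for aPD-1 v IgG (adjusted p = 0.238), 0.27 ± 0.16 for IFNg v IgG (adjusted p = 0.572) and -0.03 ± 0.19 for IFNg v aPD-1 (adjusted p = 0.953).

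**Figure D2:**
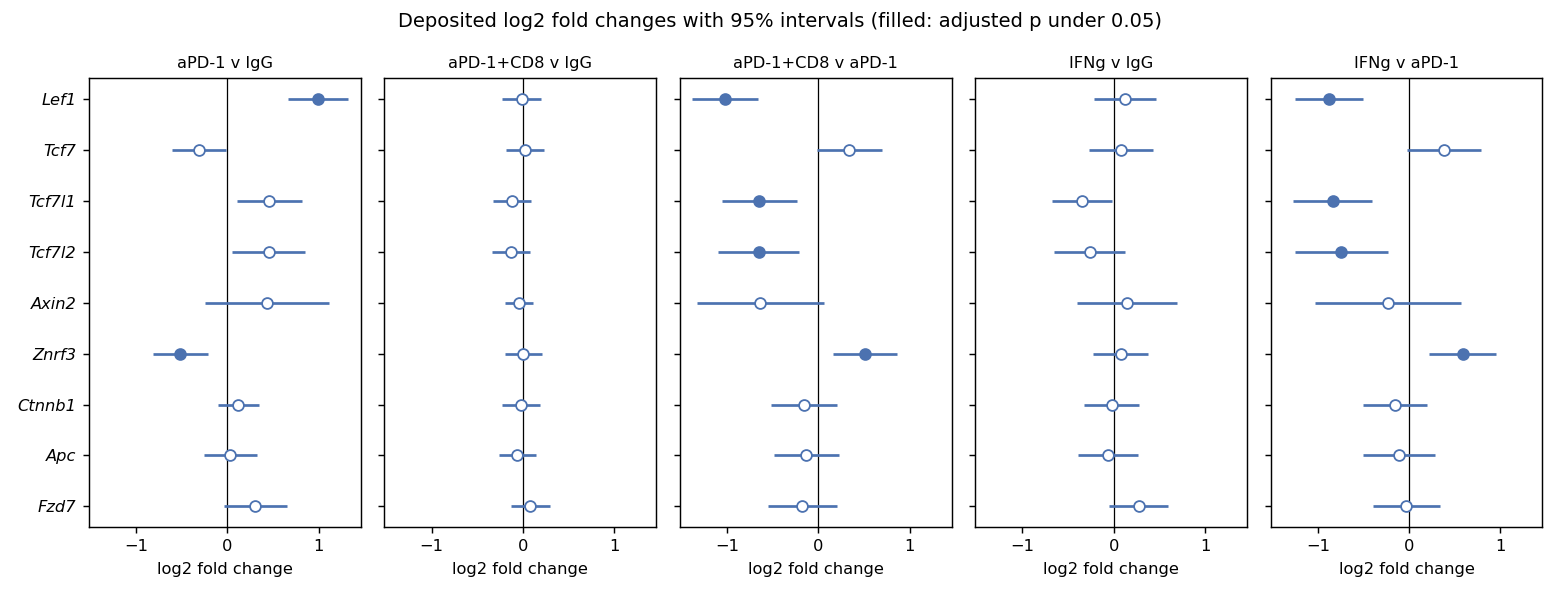
Log2 fold change of the 9 Wnt genes (y axis: gene, x axis: log2 fold change, first named group over second) in the 5 deposited comparisons, with 95% intervals from the deposited standard errors; filled points passed at an adjusted p under 0.05. Filled points occur only in the 3 panels that contrast aPD-1 with another group, and all points of aPD-1+CD8 v IgG lie between -0.13 and 0.08.

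Counted over the 9 genes, the calls lay in the comparisons that involve the aPD-1 cultures, which share those samples. In aPD-1 v IgG 1 gene was higher (Lef1) and 1 lower (Znrf3), beside 8.5% higher and 10% lower of 12024 genes tested (DESeq2, adjusted p under 0.05). The median log2 change was 0.31 over the 9 genes and 0.01 over all genes tested. In aPD-1+CD8 v aPD-1 1 gene was higher (Znrf3) and 3 lower (Lef1, Tcf7l1, Tcf7l2), beside 7.82% higher and 6.94% lower of 11560. The median was -0.17. In IFNg v aPD-1 the same 4 genes passed in the same directions, beside 8.39% higher and 7.13% lower of 12260, with a median of -0.16. For genes that fell, 3 of 9 is above those shares, but 9 genes chosen with results known give no test of that. In IFNg v IgG 0 of 9 genes passed, with 1 at an unadjusted p under 0.05 (Tcf7l1), beside 2.73% higher and 1.38% lower of 11478.

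In aPD-1+CD8 v IgG 0 of 9 genes passed (DESeq2), 0 had an unadjusted p under 0.05, and all had an adjusted p of 0.9998, beside 0% higher and 0% lower of 15304 genes tested. Over all genes 57 had an unadjusted p under 0.05 there. The largest shifts in the authors' deposited table were those of Tcf7l2, -0.13 ± 0.11, and Tcf7l1, -0.12 ± 0.11. The deposited fold changes of this comparison appear shrunken toward 0 more strongly than the others: the ratios of solved levels were -0.21 for Tcf7l2, -0.19 for Tcf7l1 and -0.22 for Axin2 in log2, against -0.04 ± 0.08 for Axin2 in the authors' deposited table. Its standard errors are therefore not a full measure of how large a difference the samples allow.

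**Figure D3:**
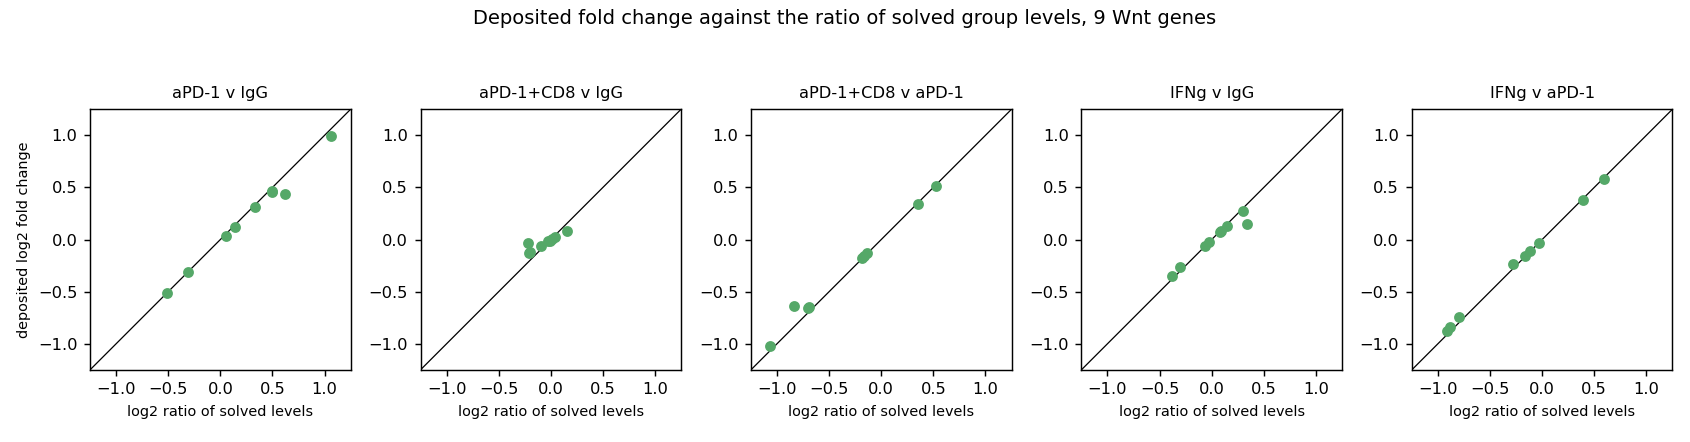
Deposited log2 fold change (y axis) against the log2 ratio of solved group levels (x axis) for the 9 Wnt genes in each comparison, with the line of equality. Points lie on or near the line in the comparisons with aPD-1, except Axin2, the gene with the fewest counts. In aPD-1+CD8 v IgG the deposited values are closer to 0 than the ratios for every gene but Lef1, whose values (-0.013 and -0.010) are both near 0.

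The other genes of the pathway were taken from 9 lists with 161 entries, without the 9 genes above. In aPD-1 v IgG 12 of 99 tested were higher and 7 lower, in aPD-1+CD8 v aPD-1 5 of 97 were higher and 11 lower, and in IFNg v aPD-1 6 of 103 were higher and 12 lower. Together 19.2%, 16.5% and 17.5% passed. These shares are near those of all genes given above, and nothing particular to the pathway is read from them. In IFNg v IgG 0 of 96 were higher and 2 lower (2.08% in all), beside 2.73% higher and 1.38% lower of all genes. In aPD-1+CD8 v IgG 0 of 125 passed (DESeq2), beside 0% higher and 0% lower of all genes. There 0 of the 125 had an unadjusted p under 0.05. All fold changes in the next 4 paragraphs are log2 values of the authors' deposited tables with their SE.

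Among ligands and receptors, Wnt10a and the receptors Fzd1 and Fzd2 were the genes that rose with aPD-1. Of 23 ligand entries, 14 were listed and 3 tested in aPD-1 v IgG, and Wnt10a passed. Its level was 7.84 in IgG, 44.9 in aPD-1, 5.97 in aPD-1+CD8 and 8.89 in IFNg. The authors' deposited tables gave Wnt10a 1.87 ± 0.36 in aPD-1 v IgG (adjusted p = 5.12e-06), -2.02 ± 0.39 in aPD-1+CD8 v aPD-1 (adjusted p = 5.44e-06) and -1.86 ± 0.41 in IFNg v aPD-1 (adjusted p = 0.000129). Wls, the carrier that takes Wnt proteins to the surface, rose by 0.37 ± 0.13 in aPD-1 v IgG (adjusted p = 0.0344) and was at -0.62 ± 0.18 in IFNg v aPD-1 (adjusted p = 0.00497) in the authors' deposited tables. Of 10 receptors tested 2 rose and 0 fell in aPD-1 v IgG, beside 8.5% higher and 10% lower of all genes. Fzd1 was at 42.2 in IgG, 208.1 in aPD-1, 42.7 in aPD-1+CD8 and 67.0 in IFNg, and rose by 1.98 ± 0.28 in the authors' deposited table for aPD-1 v IgG (adjusted p = 8.63e-11). Fzd2 was at 410.9, 924.4, 404.4 and 450.6 in the same order, and rose by 1.11 ± 0.17 (adjusted p = 1.24e-09, authors' deposited table). Both fell in the other comparisons with aPD-1, and in IFNg v aPD-1 the coreceptors Lrp6 (-0.58 ± 0.16, adjusted p = 0.0042) and Lrp5 (-0.58 ± 0.19, adjusted p = 0.015) fell too while Fzd5 rose (1.17 ± 0.32, adjusted p = 0.00266), per the authors' deposited table. Of the 5 secreted antagonists tested in aPD-1 v IgG 0 passed (DESeq2), with 1 at an unadjusted p under 0.05: Apcdd1, at -0.76 ± 0.35 (adjusted p = 0.124) in the authors' deposited table.

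In the cytoplasm 2 of 23 genes rose and 1 fell in aPD-1 v IgG, beside 8.5% higher and 10% lower of all genes. Cxxc5, which binds Dishevelled and inhibits the pathway, was at 1.15 ± 0.24 (adjusted p = 5.21e-05), and the casein kinase gene Csnk1g1 at 0.36 ± 0.13 (adjusted p = 0.0347) in the authors' deposited table. Jup, the beta-catenin relative plakoglobin, was at -0.93 ± 0.34 (adjusted p = 0.0406) there and at -1.08 ± 0.28 (adjusted p = 0.00433) in IFNg v IgG, per the authors' deposited tables. Among nuclear partners 3 of 19 rose and 2 fell in aPD-1 v IgG, beside the same 8.5% and 10% of all genes. The authors' deposited table gave the coactivator Bcl9l 0.88 ± 0.14 (adjusted p = 2.89e-09), the kinase Hipk2 0.98 ± 0.16 (adjusted p = 3.86e-08) and the Groucho corepressor Tle2 1.39 ± 0.29 (adjusted p = 3.44e-05). Nlk, a kinase that phosphorylates TCF/LEF factors, was at -0.56 ± 0.14 (adjusted p = 0.00102), and the corepressor Tle4 at -0.48 ± 0.16 (adjusted p = 0.0137) in the authors' deposited table. With the CD8 antibody added, 4 of 19 fell and 1 rose against aPD-1, beside 6.94% lower and 7.82% higher of all genes. Bcl9l, Hipk2, Tle2 and Bcl9 (-0.60 ± 0.19, adjusted p = 0.0177) were lower and Nlk (0.47 ± 0.17, adjusted p = 0.0384) higher in the authors' deposited table. Corepressors of one family thus changed in both directions.

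Targets that passed lay on both sides. Of 17 targets tested in aPD-1 v IgG 2 rose and 3 fell, beside 8.5% higher and 10% lower of all genes. Their median was -0.18 beside 0.01 for all genes. Myc, the growth regulator, was at 1529 in IgG, 511.6 in aPD-1, 1569 in aPD-1+CD8 and 1891 in IFNg, and the authors' deposited table for aPD-1 v IgG gave -1.55 ± 0.15 (adjusted p = 8.20e-24). Ccnd1, the G1 cyclin, was at 1068, 271.0, 930.9 and 1083 in the same order, with -1.90 ± 0.19 (adjusted p = 8.24e-22) in the authors' deposited table. Fosl1, an AP-1 subunit, was at -0.90 ± 0.22 (adjusted p = 0.000414) in the authors' deposited table. For all 3 the aPD-1 cultures were lowest, as for Znrf3. Those that rose were Nos2, the inducible nitric oxide synthase, at 1.64 ± 0.36 (adjusted p = 9.51e-05), and Sox4, a transcription factor, at 0.45 ± 0.16 (adjusted p = 0.0233), per the authors' deposited table. Nos2 was highest in IFNg: its level was 8.09 in IgG, 39.1 in aPD-1, 10.8 in aPD-1+CD8 and 105.5 in IFNg. Its 2 comparisons of IFNg did not pass (adjusted p = 0.0792 against IgG and 0.367 against aPD-1, authors' deposited tables). All targets on the list respond to other pathways too, and the part of Wnt signalling in these values was not tested.

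Of the cadherin partners, Cdh5, the cadherin of endothelium, was at 1.49 ± 0.28 in aPD-1 v IgG (adjusted p = 2.38e-06) and at -1.42 ± 0.31 in aPD-1+CD8 v aPD-1 (adjusted p = 0.000118) in the authors' deposited tables. The other endothelial markers were near 0: of 9 entries 7 were in all tables and 1, Cdh5, reached a mean count of 10. Cdh5 alone gave 84.0 of their summed level of 89.3 in aPD-1. In the non-canonical branch, Camk2d, a calcium-dependent kinase, fell by 1.58 ± 0.15 in aPD-1 v IgG (adjusted p = 1.15e-24, authors' deposited table). It was the 1 call of 19 tested, beside 8.5% higher and 10% lower of all genes. In IFNg v aPD-1 the authors' deposited table had Camk2d higher, at 1.69 ± 0.18 (adjusted p = 1.41e-19), and Camk2a (-1.29 ± 0.34, adjusted p = 0.00155), the coreceptor Ptk7 (-0.76 ± 0.17, adjusted p = 0.000164) and the GTPase Rhoa (-0.61 ± 0.17, adjusted p = 0.00398) lower. Camk2a was also lower in IFNg v IgG, at -0.92 ± 0.26 (adjusted p = 0.0141, authors' deposited table).

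**Figure D4:**
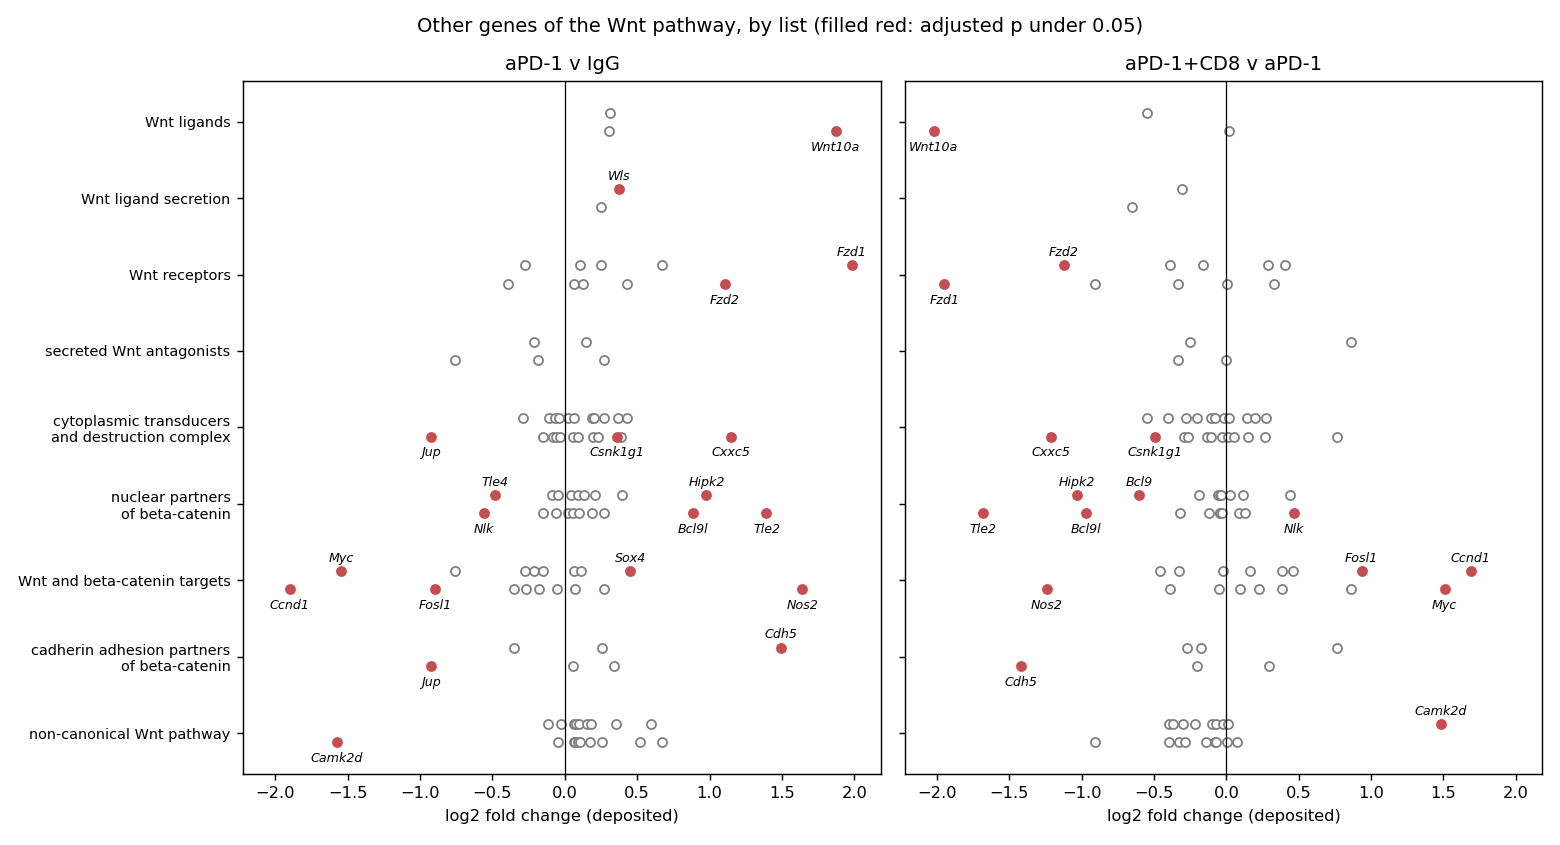
Deposited log2 fold change (x axis) of each tested gene of the 9 Wnt lists (y axis, rows offset so that points do not overlap) in aPD-1 v IgG and aPD-1+CD8 v aPD-1; filled points passed at an adjusted p under 0.05 and are named. Fzd1, Wnt10a and Tle2 lie far to the right in the first comparison, and Ccnd1, Myc and Camk2d far to the left.

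Genes whose 5 log2 fold changes lay nearest to those of each factor were found among genes averaging 100 or more counts in all tables, by Euclidean distance over 5 comparisons. Since the comparisons share groups, these are not 5 separate measurements, and nearness says nothing of shared control. Lef1 was nearest to Kdm5b (distance 0.0372), Phf1 (0.108) and 2700081O15Rik (0.117). Tcf7l1 and Tcf7l2 shared Ing4 as the nearest gene, at 0.0525 and 0.0803. The other neighbours were Bcas3 and Dnm1 for Tcf7l1 and 9530068E07Rik and Pcdh7 for Tcf7l2. Tcf7 was nearest to Cct7 (0.0251), Golga4 and Gas8, and Znrf3 to Dimt1 (0.0229), Ect2 and U2af1. Ctnnb1 was nearest to Man1a2 (0.00759), Wwc2 and Ubxn7, Apc to Tmem168 (0.0342), Ppox and Fam20b, and Fzd7 to Clptm1l (0.0260), Slc45a4 and Uso1. Genes with small changes have many near neighbours, so that short distances of Ctnnb1 carry little. Axin2 had too few counts for this measure.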

How the data were processed

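The files were 5 tables of the authors' own comparisons, made with DESeq2 on mm9 per the submitters' processing notes, from exome-capture libraries per the labels' protocols. Aligner, annotation and strand setting: not given in the sources used here. Columns per the file headers are the mean normalized count over both groups, the log2 fold change, its SE, the Wald score, the p-value and the adjusted value. The deposited log2 fold changes appear shrunken toward 0, which understates small counts. The tables held 0 columns of single samples, so the depth of single libraries is unknown.

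A gene was called at an adjusted p under 0.05 over all genes of its table, as deposited. Empty adjusted values stayed out of every count. Group levels were solved by least squares from the 5 mean counts. The tables were not on 1 scale: among 5706 genes averaging 100 or more counts in all tables, the mean counts of 4 tables that should close missed by a median of 0.647%. Rescaling brought this to 0.0292%, and the rescaled levels, listed at first as an alternative, are used throughout. The aPD-1 v IgG table lies outside that cycle and was scaled by the median ratio. Python 3.11.15, numpy 2.4.6, pandas 2.3.3 and scipy 1.17.1 were used, and the scripts were tested on simulated data.

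The members and lists were chosen with earlier results of these data known. The rule for names was: every one of the 9 genes, at most 4 called genes per list, comparison and direction by smallest p, and the 3 genes nearest to each of the 9. Alternatives were an adjusted p of 0.01, a log2 change of at least 1, a mean count of at least 10, no filter, centring, joint adjustment, an empirical null and other scales of the levels. Promoters came from RefSeq on GRCm38.p6 by symbol, for 7 of the 9 genes, without Apc and Znrf3.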

Additional observations from a re-analysis of the deposited data

How the results depend on the processing

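Of 315 alternative values of single genes and comparisons, 293 kept direction and side of the threshold, 22 lost their call and 0 reversed. Centring, the filters on mean counts and joint adjustment over the tables changed no call of the 9 genes. The number of the 9 genes called in aPD-1 v IgG, 2, was 0 with a log2 change of at least 1 and 1 against the empirical null. In aPD-1+CD8 v aPD-1 it went from 4 to 1 at an adjusted p of 0.01, to 1 with a log2 change of at least 1 and to 1 against the empirical null, and in IFNg v aPD-1 from 4 to 2, 0 and 0 in that order. The pathway count went from 19 to 10 with a log2 change of at least 1 and to 8 against the empirical null in aPD-1 v IgG, from 16 to 7 against the empirical null in aPD-1+CD8 v aPD-1, and from 18 to 9 and 7 in IFNg v aPD-1. In IFNg v IgG it went from 2 to 1 at an adjusted p of 0.01, to 1 with a log2 change of at least 1 and to 6 with joint adjustment. The empirical null widens the test because the robust SD of the Wald scores was 1.69 in aPD-1 v IgG, 1.59 in aPD-1+CD8 v aPD-1 and 1.57 in IFNg v aPD-1. Without rescaling, solved levels moved by -25.0% to 15.2%, and with scales from median ratios, chosen after seeing the data, by at most 0.337%. No paired analysis was possible because the tables hold no columns of single samples, and leaving out single replicates was not run for the same reason. Axin2, with a mean count under 100, is limited by depth.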
